A study of Arabidopsis thaliana with 9 samples.

Results

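GRX480 (AT1G28480, also called ROXY19) is a glutaredoxin gene of Arabidopsis thaliana. It is measured by 1 of the 22746 probe sets tested on the Affymetrix ATH1 array, the only probe set whose annotation names it. It was chosen by its much higher signal after hyperphyllin treatment, so its own values are given as a description with no test. The study measured whole 10-day-old Col-0 seedlings on 9 arrays, 3 biological replicates for each of 3 groups. They were wild-type seedlings grown with 30 µM hyperphyllin, a small molecule, amp1-13 mutant seedlings grown with the solvent alone, and wild-type seedlings grown with the solvent alone. The solvent, 1% DMSO, was present in all 3 groups, as were liquid medium with 1% sucrose, 26 °C and days of 16 h of light and 8 h of dark. AMP1 encodes a putative glutamate carboxypeptidase, and the mutant group rests on 1 allele. The signal of AMP1 itself was not examined.

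Glutaredoxins are small enzymes that use glutathione to reduce disulfide bonds or to remove glutathione from proteins. Class III, the CC type, is found only in land plants, and several of its members act in the nucleus beside TGA transcription factors, which bind the promoters of defence and detoxification genes. GRX480 is known as a salicylic acid-induced member that binds TGA factors. Plants that overexpress it have lower expression of the jasmonate-induced defensin gene PDF1.2 and of TGA-dependent detoxification genes.

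GRX480 was highest with hyperphyllin, intermediate in amp1-13 and lowest in wild type with DMSO, and no array of one group overlapped another group. The log2 signals were 9.53, 10.56 and 10.02 in the 3 hyperphyllin-treated arrays. The amp1-13 arrays had 9.28, 7.71 and 7.43. The wild-type DMSO arrays had 6.75, 5.23 and 5.99. In amp1-13, replicate 1 stood well above the other two and came close to the lowest hyperphyllin array. The group means were 10.04 ± 0.51 with hyperphyllin, 8.14 ± 1.00 in amp1-13 and 5.99 ± 0.76 in wild type with DMSO (SD, n = 3 each). Averaged over the 9 arrays the log2 signal was 8.06, above the median of 6.51 over all probe sets.

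On the log2 scale the hyperphyllin mean was 4.05 ± 0.51 above wild-type DMSO, which is 16.5-fold, with the standard error (SE) taken from a limma fit over all 9 arrays. The amp1-13 mean was 2.15 ± 0.51 above wild-type DMSO, or 4.42-fold. The hyperphyllin mean was 1.90 ± 0.51 above amp1-13, or 3.74-fold. The effects of hyperphyllin and of amp1-13 are set against the same 3 wild-type DMSO arrays, so these values are not independent of each other. In whole seedlings, a change in the number of cells that express the gene and a change in RNA per cell cannot be told apart.

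**Figure D1:**
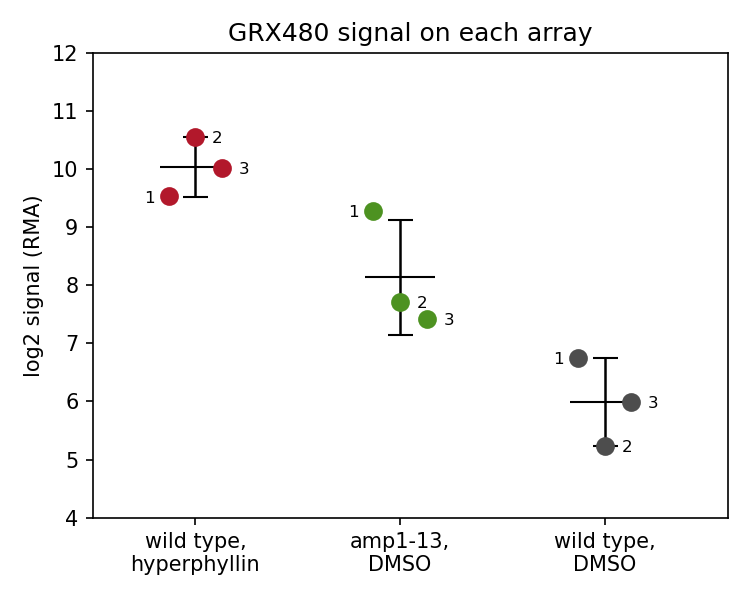
GRX480 log2 signal on each of the 9 arrays (points, with the replicate number), with the mean and SD of each group (bars), for wild type with hyperphyllin, amp1-13 with DMSO and wild type with DMSO. The hyperphyllin arrays sit between 9.53 and 10.56, the amp1-13 arrays between 7.43 and 9.28 and the wild-type DMSO arrays between 5.23 and 6.75.

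The size of the difference depended on which arrays were set against each other. Across the 9 pairs of arrays, hyperphyllin was 6.87-fold to 40.1-fold above wild-type DMSO. The 9 pairs of amp1-13 and wild-type DMSO arrays gave 1.60-fold to 16.5-fold. Hyperphyllin against amp1-13 gave 1.19-fold to 8.78-fold over its 9 pairs, so the closest arrays of these groups were nearly equal. Groups that do not overlap were common on these arrays. Of all probe sets, 39.5% had hyperphyllin and wild-type DMSO arrays that did not overlap, 16.7% with hyperphyllin higher and 22.8% with it lower. For amp1-13 and wild-type DMSO the share was 35.3%, 14.9% with amp1-13 higher and 20.4% with it lower. For hyperphyllin and amp1-13 it was 26.9%, 14.3% with hyperphyllin higher and 12.6% with it lower.

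Ranked by the signed log2 difference among the 22746 probe sets, GRX480 was 16th for hyperphyllin against wild-type DMSO, 47th for amp1-13 against wild-type DMSO and 66th for hyperphyllin against amp1-13. Ranked by the size of the difference in either direction, it was 17th, 64th and 95th in the same order of comparisons. Among the 13513 probe sets that name a single gene, its signed difference was 6th, 16th and 31st. Counting GRX480 itself, which was chosen for its rise, 16 probe sets were at least 16-fold higher with hyperphyllin than with DMSO, against 0 in the other comparisons. At least 4-fold higher were 227 probe sets with hyperphyllin against DMSO, 69 in amp1-13 against wild type and 50 with hyperphyllin against amp1-13. The median difference over all probe sets was -0.03, -0.03 and 0.01. The normalization of the signals makes the arrays alike in distribution, so a median close to 0 is largely set by it.

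The rank by moderated t, which divides the difference by its moderated SE, was much lower than the rank by size. GRX480 was 402nd for hyperphyllin against wild-type DMSO, 1414th for amp1-13 against wild-type DMSO and 779th for hyperphyllin against amp1-13. In the same order, 1.76%, 6.21% and 3.42% of probe sets had a higher t.

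**Figure D2:**
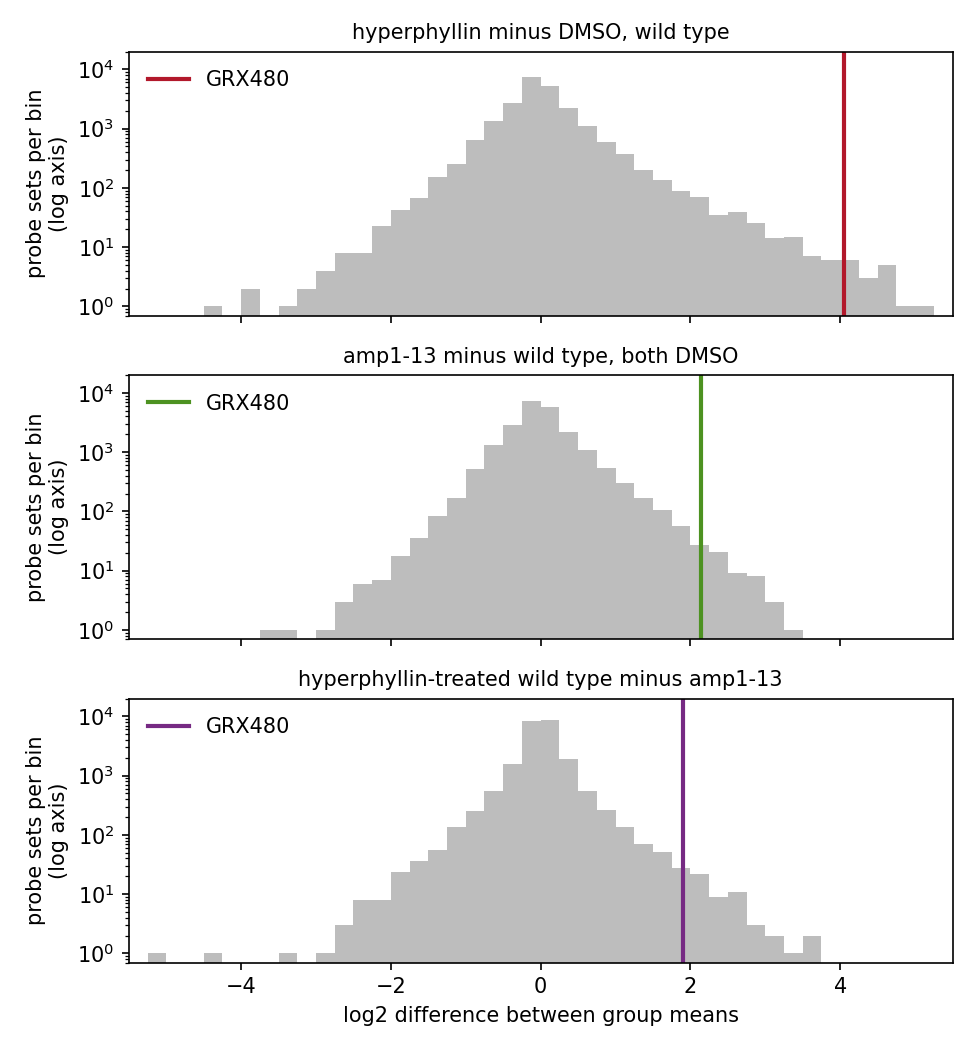
Distribution of the log2 differences of all 22746 probe sets in the 3 comparisons, with the position of GRX480 marked; the count axis is logarithmic. GRX480 lies at 4.05, 2.15 and 1.90, in the upper tail of each distribution, at ranks 16, 47 and 66.

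Genes beside GRX480 in the ranking are given to show which neighbours it cannot be separated from. Just above it for hyperphyllin against wild-type DMSO, among single-gene probe sets, were AT3G01830 with a log2 difference of 4.63 ± 0.62 (SE), AT1G66090 with 4.31 ± 0.36, AT1G22810 with 4.13 ± 0.45, the pectin methylesterase gene ATPMEPCRB (AT4G02330) with 4.09 ± 0.29 and AT2G34930 with 4.09 ± 0.49. Just below it were AT5G12340 with 3.97 ± 0.47, the glutamine amidotransferase gene GAT1_2.1 with 3.71 ± 0.37, AT4G22470 with 3.47 ± 0.34, the calmodulin-like gene CML37 with 3.42 ± 0.70 and AT3G55840 with 3.34 ± 0.39. The SE of 0.51 for GRX480 is larger than the distance from 4.05 to AT1G66090 above it and to GAT1_2.1 below it, so its place among the genes between them is not resolved.

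For amp1-13 against wild-type DMSO the nearest genes above GRX480 were AT3G44970 (2.25 ± 0.11), AT3G02840 (2.24 ± 0.64) and EXO (2.19 ± 0.18), and the nearest below were AT1G65490 (2.14 ± 0.43), AT2G25450 (2.14 ± 0.14) and AT5G48540 (4.29-fold above wild type). For hyperphyllin against amp1-13 the nearest above were AT3G27400 (1.92 ± 0.14), AT3G01830 (1.92 ± 0.62) and AT5G56980 (1.91 ± 0.30), and the nearest below were AT3G43270 (1.88 ± 0.09), AT5G05600 (1.87 ± 0.45) and AT1G56660 (1.85 ± 0.30). All of these lie within 1 SE of GRX480. AT3G01830 was the gene found beside GRX480 in 2 of the 3 rankings.

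GRX480 varied more between replicates than most probe sets. Its SD within the hyperphyllin group was 0.51, against a median of 0.11 over all probe sets, and 2.26% of probe sets had a larger one. In amp1-13 the SD was 1.00 against a median of 0.11, and only 0.0879% of probe sets had a larger one, which made GRX480 the 21st most variable. In wild type with DMSO the SD was 0.76 against a median of 0.16, with 0.369% of probe sets larger. Among the 1000 probe sets closest to it in mean signal, 3.5% had a larger SD with hyperphyllin, 0.2% in amp1-13 and 0.5% in wild type with DMSO. The highest array exceeded the lowest by 2.04-fold within the hyperphyllin group, 3.60-fold within amp1-13 and 2.86-fold within wild-type DMSO.

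The arrays on which GRX480 was highest or lowest in its group are given here beside all probe sets. Replicate 2 of hyperphyllin, the highest for GRX480, was the highest of the group for 26.2% of all probe sets. Replicate 1 of amp1-13 was the highest of the group for 34.2% of all probe sets. Replicate 1 of wild-type DMSO was the highest for 35.1% of probe sets, and replicate 2, the lowest array of GRX480, was the lowest for 38.9%. All 3 of these highest arrays were the highest of their groups together for 4.12% of probe sets. Replicate 2 of wild-type DMSO also stood somewhat apart over all probe sets, with a mean correlation of 0.985 with its own group where no other array was below 0.989, and an SD of 0.244 for its deviations from the group mean where the others had 0.12 to 0.187. Array medians ranged from 6.44 to 6.52.

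Leaving out either of these arrays moved GRX480 but not its direction. Without amp1-13 replicate 1 the amp1-13 difference from wild-type DMSO was 1.58 and its rank 159, while the difference between hyperphyllin and amp1-13 was 2.47 and its rank 36. Without wild-type DMSO replicate 2 the hyperphyllin difference was 3.67 and the amp1-13 difference 1.77, with a rank of 123 for amp1-13. The rank of the difference between hyperphyllin and amp1-13 was 32 without hyperphyllin replicate 1 and 103 without amp1-13 replicate 3. The number of arrays limits how precisely either difference is known.

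The genes whose profiles over the 9 arrays were most like that of GRX480 were found by the root mean square (RMS) difference of log2 signals, each gene centred on its own mean, among the 13512 other single-gene probe sets. The 10 nearest, from the nearest outward, were AT5G12340 (RMS 0.34), AT1G66090 (0.40), AT3G01830 (0.43), CML37 (0.46), AT3G55840 (0.50), AT4G39670 (0.50), AT2G22760 (0.53), ATPMEPCRB (0.56), AT5G52050 (0.56) and AT3G02840 (0.57). The median over all ranked probe sets was 1.80. CML37 encodes a calmodulin-like calcium sensor, and AT5G52050 encodes the detoxification efflux carrier DTX50. As a description over 9 arrays that share their groups, Pearson's r with GRX480 ran between 0.949 and 0.986 for these 10, and 56 probe sets (0.414%) had an r of at least 0.95.

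AT5G12340, the nearest, had log2 signals of 9.17, 9.43 and 8.44 with hyperphyllin, 8.00, 6.45 and 6.74 in amp1-13 and 5.79, 4.27 and 5.05 in wild type with DMSO. It ordered the groups like GRX480, and its amp1-13 replicate 1 also stood above the other two. CML37 had 6.92, 8.38 and 7.88 with hyperphyllin, 7.58, 5.46 and 5.93 in amp1-13 and 5.76, 3.39 and 3.78 in wild type with DMSO. Unlike GRX480, its hyperphyllin and amp1-13 arrays overlapped.

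All 10 were higher on average with hyperphyllin than with DMSO, by 3.12 to 4.63 on the log2 scale, and all 10 were higher in amp1-13 than in wild type, by 0.99 to 2.71. Their likeness was not limited to the group means. The highest array within a group was the same as for GRX480 in 9 of the 10 genes with hyperphyllin, in all 10 in amp1-13 and in all 10 in wild type with DMSO. The lowest array was the same in 5, 1 and 7 of them, in the same order of groups. These genes were picked for this likeness, so the counts describe it and test nothing.

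Ranked by Pearson's r in place of the RMS difference, which ignores the size of the change, the 10 nearest were PUB22, AT2G27080, AT4G39670, AT3G01830, AT2G25735, AT1G24140, AT4G24380, AT5G12340, AT5G11650 and AT2G01300, and 3 genes were in both lists. PUB22, a U-box ubiquitin ligase gene, came nearest by this measure with r = 0.989, but was only 1.68 higher on the log2 scale with hyperphyllin and 1.05 higher in amp1-13.

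**Figure D3:**
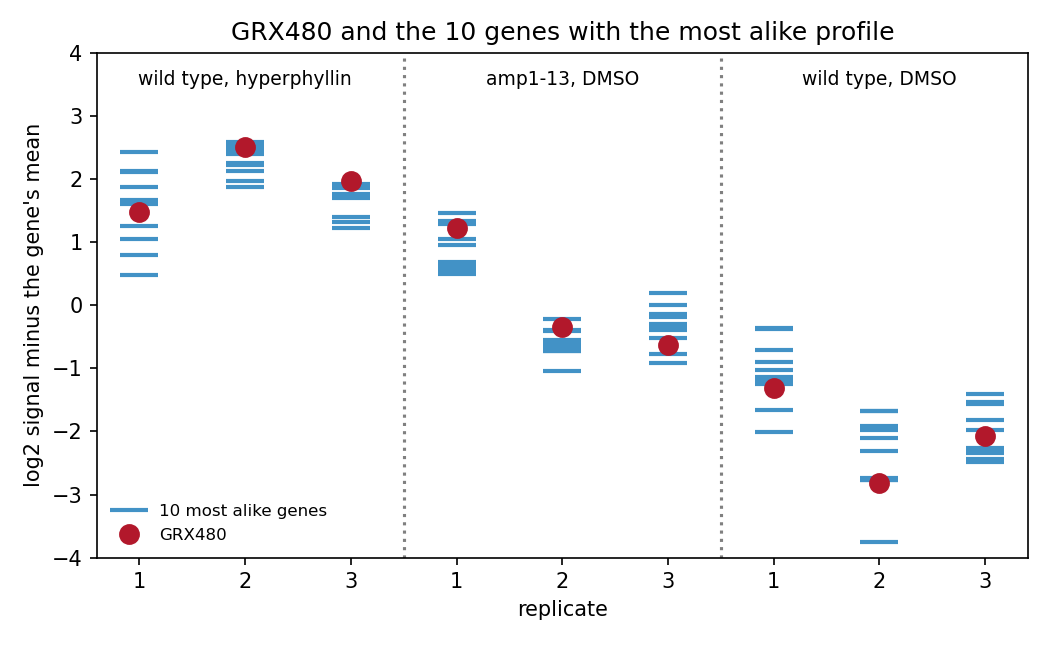
Log2 signal minus the gene's own mean over the 9 arrays, for GRX480 (circles) and the 10 genes with the smallest RMS difference from it (dashes), by group and replicate. Replicate 1 of amp1-13 stands above the other amp1-13 arrays for GRX480 and for all 10 genes.

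GRX480 was set beside the other glutaredoxins with the limma test over all probe sets, at an adjusted p below 0.05. Of 20 further class III loci listed from knowledge of the family, 16 had a probe set naming a single gene. Here and below, only listed genes with such a probe set are called measured. The annotation gave no name to 8730 probe sets, so a gene not counted as measured may still be on the array. The gene table used here names ROXY1 and ROXY2 among them and gives the other 14 by locus only. With hyperphyllin, 5 of the 16 were higher than with DMSO and 6 were lower, where 13.3% of all probe sets were called higher and 15.6% lower (28.9% in all). Their median log2 difference was -0.04, with a range of -1.86 to 1.84, against -0.03 for all probe sets. GRX480, at 4.05, lay outside this range, but it was chosen for its rise. In amp1-13, 0 were higher and 3 lower than in wild type, where 22.5% of all probe sets were called, 10.1% higher and 12.5% lower, and the range was -1.00 to 0.54, below the 2.15 of GRX480. At an unadjusted p under 0.05, 6 of the 16 differed in amp1-13 in either direction. With each array left out in turn, 7 of the 11 calls with hyperphyllin and 1 of the 3 in amp1-13 always held. Between hyperphyllin and amp1-13, 3 were higher and 3 lower, where 6.33% of all probe sets were called, 2.98% higher and 3.35% lower.

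The class III genes that were higher with hyperphyllin included 3 members of a run of consecutive loci. AT4G15700 had log2 signals of 5.68, 5.42 and 6.14 with hyperphyllin, 4.48, 4.14 and 4.11 in amp1-13 and 4.57, 3.80 and 3.61 in wild type with DMSO. All hyperphyllin arrays were above all others, while amp1-13 overlapped wild type. It rose 3.38-fold with hyperphyllin (log2 difference 1.76 ± 0.26, adjusted p = 0.00138), and in amp1-13 the difference was 0.25 (adjusted p = 0.54). AT4G15690 had 7.06, 6.47 and 7.28 with hyperphyllin, 5.60, 5.52 and 5.12 in amp1-13 and 5.60, 5.08 and 4.89 in wild type with DMSO. It rose 3.36-fold with hyperphyllin (1.75 ± 0.24, adjusted p = 0.00101) and differed by 0.23 in amp1-13 (adjusted p = 0.553). AT4G15660, whose mean signal was below the 25th percentile of all probe sets, rose 2.65-fold with hyperphyllin (1.40 ± 0.25, adjusted p = 0.00377).

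Set against amp1-13 directly, these 3 genes were also higher with hyperphyllin, by 1.51 for AT4G15700 (adjusted p = 0.00943), 1.52 for AT4G15690 (adjusted p = 0.00675) and 1.24 for AT4G15660 (adjusted p = 0.0212). Only the call of AT4G15690 held when each array was left out in turn. That of AT4G15700 was lost without amp1-13 replicate 2 (adjusted p = 0.055), and that of AT4G15660 without hyperphyllin replicate 1 (0.0689), hyperphyllin replicate 3 (0.0547), amp1-13 replicate 2 (0.097) or amp1-13 replicate 3 (0.0793). AT4G15680, in the same run of 5 loci, differed from wild-type DMSO by 0.69 with hyperphyllin (adjusted p = 0.187, but 0.0145 without wild-type DMSO replicate 1), and AT4G15670 was not measured by a probe set naming a single gene. Neighbouring glutaredoxin genes can be alike in sequence, and their probe sets may share signal, although none of these carries the array's suffix for cross-hybridisation. The part of shared signal in these values was not tested.

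AT5G18600 and AT3G62930 were the other class III genes called higher with hyperphyllin. AT5G18600 had log2 signals of 8.72, 8.04 and 8.88 with hyperphyllin, 6.75, 7.20 and 6.91 in amp1-13 and 7.96, 5.42 and 6.74 in wild type with DMSO. The wild-type arrays differed widely, with replicate 1 high and replicate 2 low, as for GRX480. AT5G18600 rose 3.58-fold with hyperphyllin (1.84 ± 0.52, adjusted p = 0.0262), a call that was lost without hyperphyllin replicate 1 (0.076), hyperphyllin replicate 3 (0.0785) or wild-type DMSO replicate 3 (0.0771). AT3G62930 rose 1.52-fold (0.60 ± 0.18, adjusted p = 0.0345), a call lost without any of 5 arrays: hyperphyllin replicates 1 (0.0808) and 3 (0.109), amp1-13 replicate 2 (0.0559) and wild-type DMSO replicates 2 (0.0749) and 3 (0.0917).

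Other class III genes went the opposite way to GRX480 with hyperphyllin. AT5G11930 had log2 signals of 4.62, 4.63 and 5.57 with hyperphyllin, 5.50, 6.10 and 5.81 in amp1-13 and 6.72, 6.93 and 6.77 in wild type with DMSO. It was 3.64-fold lower with hyperphyllin (-1.86 ± 0.25, adjusted p = 0.000861). In amp1-13 the difference was -1.00 (adjusted p = 0.019), lost without amp1-13 replicate 1 (0.071), amp1-13 replicate 3 (0.0501) or wild-type DMSO replicate 3 (0.0623).

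AT4G33040 had 6.63, 6.68 and 7.23 with hyperphyllin, 7.59, 7.95 and 7.67 in amp1-13 and 8.55, 8.91 and 8.56 in wild type with DMSO, with no overlap between any groups. Its order of the groups was the reverse of that of GRX480. It was 3.55-fold lower with hyperphyllin (-1.83 ± 0.18, adjusted p = 0.000247) and lower by 0.93 on the log2 scale in amp1-13 (difference -0.93, adjusted p = 0.00681), and both calls held with each array left out in turn. Against amp1-13 it was lower with hyperphyllin (-0.89, adjusted p = 0.0187), a call lost without hyperphyllin replicate 1 (0.0653) or 2 (0.0829) or amp1-13 replicate 2 (0.0959) or 3 (0.0578).

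AT1G06830 had 6.27, 6.59 and 6.84 with hyperphyllin, 7.88, 8.43 and 7.99 in amp1-13 and 8.40, 8.05 and 8.20 in wild type with DMSO. It was 3.13-fold lower with hyperphyllin (-1.65 ± 0.18, adjusted p = 0.000386), while amp1-13 overlapped wild type (-0.11, adjusted p = 0.707). The direct difference between hyperphyllin and amp1-13 was -1.53 (adjusted p = 0.00196), and it held with each array left out in turn. AT2G30540 was 2.84-fold lower with hyperphyllin (-1.51 ± 0.24, adjusted p = 0.00186) and differed by -0.72 in amp1-13 (adjusted p = 0.0546, but 0.0101 without wild-type DMSO replicate 2).

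The remaining 2 class III genes called lower with hyperphyllin lost the call, but not the direction of the difference, without any of several arrays. AT1G03020 had a log2 difference of -1.25 ± 0.31 with hyperphyllin (adjusted p = 0.0158), lost without hyperphyllin replicate 1 (0.0532) or 2 (0.0594) or without wild-type DMSO replicate 1 (0.0569) or 3 (0.0679). Its amp1-13 difference of -1.00 (adjusted p = 0.0461) was lost without any array other than wild-type DMSO replicate 2, at 0.16 without wild-type DMSO replicate 3. AT2G47880 differed by -0.66 ± 0.22 with hyperphyllin (adjusted p = 0.0497) and lost the call without hyperphyllin replicate 1 (0.14) or 2 (0.159), amp1-13 replicate 3 (0.0708) or any of the wild-type DMSO replicates 1 (0.095), 2 (0.0682) and 3 (0.147). In amp1-13 it was 0.54 above wild type (adjusted p = 0.109, but 0.0394 without amp1-13 replicate 1). Against amp1-13 it was lower with hyperphyllin (-1.20, adjusted p = 0.013), a call lost without hyperphyllin replicate 2 (0.0626).

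ROXY1, which acts in petal development, and ROXY2, which acts with it in anther development, were not called, with differences of -0.06 and -0.02 with hyperphyllin (adjusted p = 0.773 and 0.917) and of 0.08 and 0.10 in amp1-13 (adjusted p = 0.658 and 0.509). AT3G62950 (0.04, adjusted p = 0.871) and AT3G62960 (-0.25, adjusted p = 0.247) were not called with hyperphyllin either. The mean signal of AT3G62950 was below the 25th percentile of all probe sets, near the bottom of the signal range, so its lack of a call says little.

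**Figure D4:**
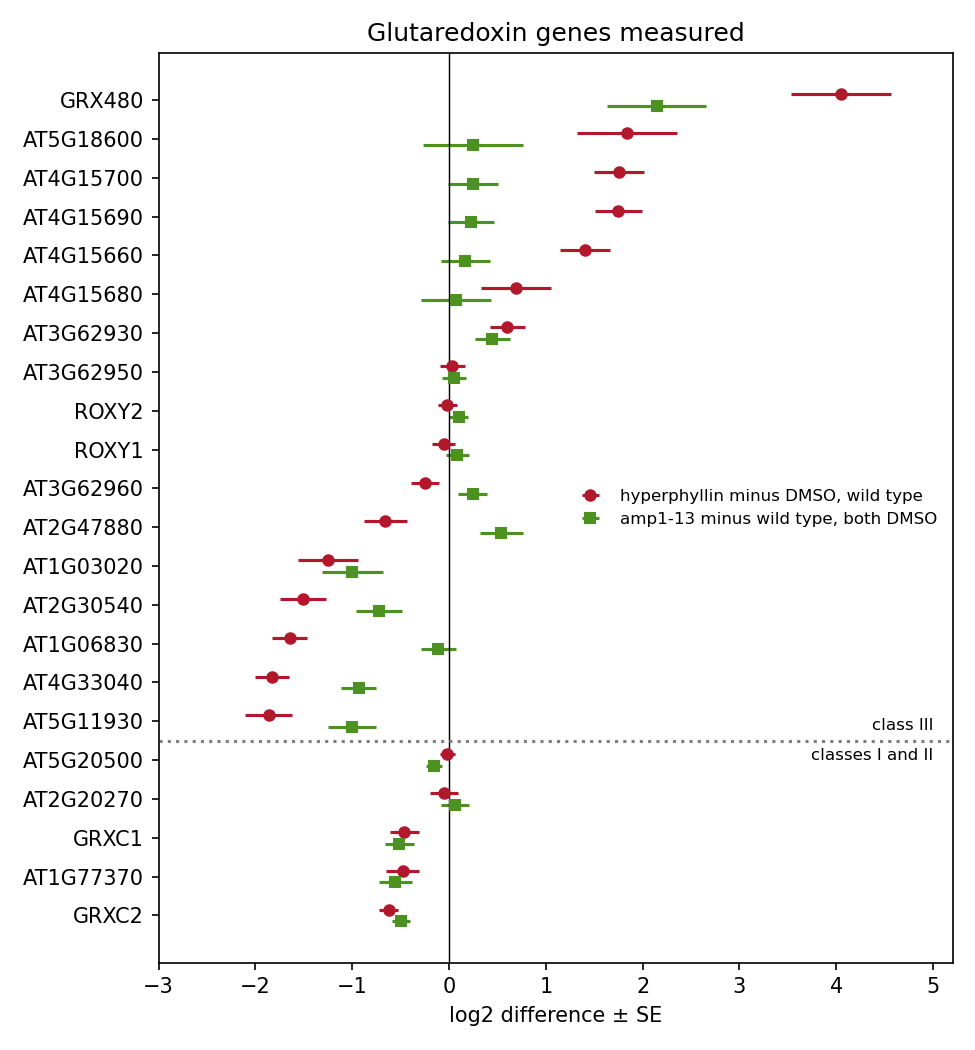
Log2 difference (point) with its SE (bar) for GRX480 and each other measured glutaredoxin gene, for hyperphyllin minus DMSO in wild type and for amp1-13 minus wild type with DMSO in both. GRX480 has the highest value in both comparisons, 4.05 and 2.15, and the other class III genes span -1.86 to 1.84 with hyperphyllin and -1.00 to 0.54 in amp1-13.

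Classes I and II, the CPYC and CGFS types that work in general redox balance and in iron-sulfur cluster transfer, had 5 of 10 listed genes measured. All 5 belong to class I, so the counts below do not cover class II. With hyperphyllin 0 were higher and 2 lower (13.3% and 15.6% of all probe sets), and in amp1-13 0 were higher and 3 lower (10.1% and 12.5%), so the count of 0 higher is near the share over all probe sets. GRXC2 had log2 signals of 11.88, 11.93 and 11.89 with hyperphyllin, 11.91, 12.05 and 12.12 in amp1-13 and 12.63, 12.37 and 12.57 in wild type with DMSO. It was lower with hyperphyllin (-0.62 ± 0.10, adjusted p = 0.00176) and in amp1-13 (-0.50, adjusted p = 0.00748). GRXC1 was called lower with hyperphyllin (-0.46, adjusted p = 0.0441), but lost the call without any of 7 arrays, all but amp1-13 replicate 1 and wild-type DMSO replicate 2 (0.0541 to 0.15). In amp1-13 it was lower by 0.51 on the log2 scale (difference -0.51, adjusted p = 0.0361), lost without hyperphyllin replicate 2 (0.0515), amp1-13 replicate 1 (0.111) or 2 (0.0514) or wild-type DMSO replicate 1 (0.0906) or 3 (0.124). AT1G77370 was called lower in amp1-13 (-0.55, adjusted p = 0.0445), lost without any array but wild-type DMSO replicate 2 (0.0512 to 0.147). With hyperphyllin AT1G77370 differed by -0.48 (adjusted p = 0.0638, but 0.00235 without wild-type DMSO replicate 2). AT5G20500 differed by -0.02 (adjusted p = 0.895) and AT2G20270 by -0.05 (adjusted p = 0.823) with hyperphyllin.

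The genes that GRX480 is known to act with or on were covered thinly. None of 17 listed TGA factors, NPR proteins and corepressors had a probe set naming a single gene, so they were not analysed here. Of 17 salicylic acid pathway genes only WRKY53, a regulator of senescence and defence, had a probe set naming a single gene. Its log2 signals were 8.15, 9.71 and 10.04 with hyperphyllin, 9.20, 7.27 and 7.61 in amp1-13 and 5.81, 6.40 and 7.06 in wild type with DMSO. Like GRX480, it had a high amp1-13 replicate 1, the highest of that group for 34.2% of all probe sets. Unlike GRX480, it was lowest in wild-type DMSO replicate 1 within that group and highest in hyperphyllin replicate 3. WRKY53 rose 7.34-fold with hyperphyllin (2.88 ± 0.60, adjusted p = 0.00704), and in amp1-13 it was 1.60 above wild type (adjusted p = 0.0831, but 0.0482 without hyperphyllin replicate 1).

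PDF1.2, the defensin gene whose expression GRX480 overexpression lowers, was near the bottom of the signal range on 8 of the 9 arrays. Its log2 signals were 4.14, 4.15 and 4.15 with hyperphyllin, 3.94, 4.09 and 4.09 in amp1-13 and 4.33, 3.86 and 9.32 in wild type with DMSO. PDF1.2b, whose probe set carries a cross-hybridisation suffix, had 5.10, 5.19 and 5.29 with hyperphyllin, 5.03, 4.97 and 4.91 in amp1-13 and 5.14, 4.94 and 9.01 in wild type with DMSO. Both were high on wild-type DMSO replicate 3 alone, an array on which GRX480 was intermediate for its group, at 5.99. PDF1.2 differed by -1.69 ± 1.14 with hyperphyllin (adjusted p = 0.313) and by -1.79 in amp1-13 (adjusted p = 0.297), and PDF1.2b by -1.17 (adjusted p = 0.357) and -1.40 (adjusted p = 0.285), so neither was called. With the arrays weighted by their quality, PDF1.2 differed by -3.83 with hyperphyllin (adjusted p = 0.00887) and by -3.93 in amp1-13 (adjusted p = 0.00995), and PDF1.2b by -2.80 (adjusted p = 0.0115) and -3.02 (adjusted p = 0.01). These weighted calls rest on wild-type DMSO replicate 3, since the other wild-type DMSO arrays were as low as the arrays of the other groups. The other 18 of 20 listed jasmonate and ethylene genes were not analysed here.

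Of 23 TGA-dependent detoxification genes 5 were measured, and 2 were higher with hyperphyllin, where 13.3% of all probe sets were called higher. GSTU22, a tau class glutathione S-transferase, had log2 signals of 6.50, 5.62 and 5.59 with hyperphyllin, 4.79, 5.01 and 4.69 in amp1-13 and 5.00, 4.64 and 4.97 in wild type with DMSO. It rose 2.05-fold with hyperphyllin (1.03 ± 0.23, adjusted p = 0.00964) and differed by -0.04 in amp1-13 (adjusted p = 0.926). UGT73B5, a glucosyltransferase, rose 1.64-fold with hyperphyllin (0.71 ± 0.17, adjusted p = 0.015), a call lost without hyperphyllin replicate 2 (0.0503). The other 3 were not called with hyperphyllin. UGT73B4 differed by 0.67 (adjusted p = 0.0558, but 0.00998 without hyperphyllin replicate 3) and AT2G04050 by -0.02 (adjusted p = 0.937). GSTU25 differed the other way, by -0.39 (adjusted p = 0.278), and was called lower without hyperphyllin replicate 1 (-0.67, adjusted p = 0.0462) and with array weights (-0.66, adjusted p = 0.0322). In amp1-13, where 10.1% of all probe sets were called higher and 12.5% lower, limma called 0 of the 5, and 0 had an unadjusted p under 0.05. With array weights AT2G04050 was called higher in amp1-13 (0.31, adjusted p = 0.04). Of 15 glutathione enzymes 2 were measured. The glutathione reductase gene GR1 was higher in amp1-13 (0.57, adjusted p = 0.0118), but not without wild-type DMSO replicate 3 (0.0513). The other, GR, was higher with hyperphyllin (0.43, adjusted p = 0.0478), a call lost without any array but amp1-13 replicate 3 and wild-type DMSO replicate 2 (0.061 to 0.167).

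Families of redox and defence genes were also taken by name, only among genes with a probe set naming a single gene. The thioredoxin, glutathione S-transferase and WRKY lists therefore hold a part of each family. GSTU22, GSTU25 and WRKY53 are also members of the pathway lists above. Of all probe sets, 13.3% were called higher and 15.6% lower with hyperphyllin, and 10.1% higher and 12.5% lower in amp1-13. Of 8 thioredoxin genes, 4 were higher and 2 lower with hyperphyllin, and 4 were higher and 2 lower in amp1-13. NTRC, the plastid NADPH-dependent thioredoxin reductase, was higher by 1.07 with hyperphyllin (adjusted p = 0.00108) and by 0.83 in amp1-13 (adjusted p = 0.00559). The thioredoxin gene ty2 was higher by 0.89 with hyperphyllin (adjusted p = 0.000928) and by 0.88 in amp1-13 (adjusted p = 0.00165), and TRXF2 by 0.66 (adjusted p = 0.00517) and 0.86 (adjusted p = 0.00241). The thioredoxin gene TY1 was lower by 0.89 with hyperphyllin (difference -0.89, adjusted p = 0.00564) and by 0.83 in amp1-13 (difference -0.83, adjusted p = 0.0103). The other gene called lower in both comparisons, TO2, lost its hyperphyllin call without any array but wild-type DMSO replicate 2 (0.0606 to 0.165), and its amp1-13 call without any amp1-13 array or wild-type DMSO replicate 1 or 3 (0.0504 to 0.115). Of 14 glutathione S-transferase genes, 2 were higher and 5 lower with hyperphyllin, and 1 was higher and 3 lower in amp1-13, so the counts of higher genes are near the shares over all probe sets. Of the 3 lower in amp1-13, GSTU16 and GSTU20 lost the call without any amp1-13 array or wild-type DMSO replicate 1 or 3 (0.0501 to 0.12). GSTU16 was 2.98-fold lower with hyperphyllin (-1.58 ± 0.19, adjusted p = 0.00058), and GSTU18 was 1.98-fold higher (0.98 ± 0.20, adjusted p = 0.00584). GSTU23 was lower by 0.82 on the log2 scale both with hyperphyllin (difference -0.82, adjusted p = 0.00766) and in amp1-13 (difference -0.82, adjusted p = 0.00993). All of these differences were smaller than the 4.05 of GRX480, but GRX480 was chosen for its rise.

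Of 7 WRKY transcription factor genes, 3 were higher with hyperphyllin and 2 in amp1-13, where 13.3% and 10.1% of all probe sets were called higher. In both, 0 of the 7 were lower, near the 15.6% and 12.5% of all probe sets. WRKY22, a gene of the response to microbial patterns, was 2.68 ± 0.29 higher with hyperphyllin (adjusted p = 0.000361) and 1.83 higher in amp1-13 (adjusted p = 0.003). WRKY6, a gene of senescence and pathogen defence, was 1.80 ± 0.19 higher with hyperphyllin (adjusted p = 0.000353) and 1.68 higher in amp1-13 (adjusted p = 0.000744). As for GRX480, both were higher than wild-type DMSO in both comparisons, and these calls held with each array left out in turn.

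Markers of shoot tissue, those measured all being photosynthesis genes, were also above wild-type DMSO in both other groups. Of 8 listed shoot markers 5 were measured, and 4 were higher with hyperphyllin and 5 in amp1-13, where 13.3% and 10.1% of all probe sets were called higher, with median log2 differences of 0.83 and 0.90. Between hyperphyllin and amp1-13 their median was -0.14, with 0 higher and 1 lower (2.98% and 3.35% of all probe sets). LHCB4.1 ordered the group means as GRX480 did, but was only 0.03 higher with hyperphyllin than in amp1-13 (adjusted p = 0.936). The Calvin cycle genes PRK and SBPASE were 0.93 and 1.05 higher with hyperphyllin (adjusted p = 0.00133 and 0.000361) and 1.54 and 1.19 higher in amp1-13 (adjusted p = 0.000321 and 0.000361). The Rubisco activase gene RCA was 0.83 higher with hyperphyllin (adjusted p = 0.00139) and 0.90 higher in amp1-13 (adjusted p = 0.00159), and the antenna gene LHCB4.1 0.63 (adjusted p = 0.00256) and 0.60 (adjusted p = 0.00493). PRK was the gene called lower with hyperphyllin than in amp1-13 (-0.60, adjusted p = 0.0306), a call lost without any hyperphyllin or amp1-13 array (0.0547 to 0.125). The antenna gene LHCB4.2 was called in amp1-13 (0.55, adjusted p = 0.0174) but not with hyperphyllin (0.18, adjusted p = 0.349), and lost the amp1-13 call without amp1-13 replicate 1 (0.0511), amp1-13 replicate 2 (0.058) or wild-type DMSO replicate 3 (0.0569). Of 12 root markers 2 were measured, and limma called 0 of them in either comparison, where 28.9% and 22.5% of all probe sets were called: PYK10 differed by 0.34 with hyperphyllin (adjusted p = 0.0732, but 0.0196 without wild-type DMSO replicate 2) and 0.22 in amp1-13 (adjusted p = 0.237), and EXPA7 by 0.21 (adjusted p = 0.517) and 0.44 (adjusted p = 0.18). With an unadjusted p under 0.05, PYK10 alone passed, with hyperphyllin. Between hyperphyllin and amp1-13, PYK10 differed by 0.11 (adjusted p = 0.742) and EXPA7 by -0.23 (adjusted p = 0.685). The group means of PYK10 thus had the order of those of GRX480. The part of tissue composition in the rise of GRX480 was not tested. Over the 9 arrays the log2 signals ran from 13.03 to 13.75 for PYK10 and from 6.94 to 8.05 for EXPA7.

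The genes on either side of GRX480 in the order of the reference gene table did not share the size of its difference. The nearest measured gene on one side, AGL59, 4 genes away, differed by -0.29 with hyperphyllin (adjusted p = 0.0395) and by -0.30 in amp1-13 (adjusted p = 0.0447). The nearest on the other side, AT1G28510, 3 genes away, differed by 0.05 (adjusted p = 0.684) and 0.01 (adjusted p = 0.934). Over the 3 nearest measured genes on each side the differences lay between -0.84 for AT1G28570 and 0.49 for AT1G28400 with hyperphyllin, and between -0.79 for AT1G28410 and 0.06 for AT1G28400 in amp1-13.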

How the data were processed

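Per the submitters' processing notes, the authors made the deposited log2 signals with RMA; no software version is recorded for that step. They run from 2.77 to 14.3 and were used as deposited, without a filter. Of 22810 probe sets, 64 control sets were left out. A platform table named 1 gene for 13513 probe sets, several for 503 and none for 8730. Differences were fitted with limma 3.58.1 in R 4.3.3 over all 9 arrays, with 1 mean per group, empirical Bayes moderation (6 residual and 3.45 prior degrees of freedom) and two-sided tests with Benjamini-Hochberg adjustment over the 22746 probe sets at 0.05; 3 against 3 arrays cannot give a permutation p below 0.1. The fit was tested on simulated data. Arrays carry no count depth. GRX480 and the gene lists were chosen with earlier results of these data known. Class III, class I and II and pathway lists came from background knowledge, and family lists from gene names. Named genes were all measured glutaredoxins, up to 4 members of other lists with the largest change among those called without overlap (the 2 with the smallest p where none was called), the 10 most alike genes, the rank neighbours and the nearest measured loci. GSTU20, GSTU25, TO2, LHCB4.2, UGT73B4 and AT2G04050 were added after their values were seen, because their calls changed when single arrays were left out or with a setting. The calls of other list members, such as GSTU26 and WRKY47, changed as well, and these were not all named. Alternatives were other scalings, weights, priors, filters, a replicate block and leaving out each array.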

Additional observations from a re-analysis of the deposited data

How the results depend on the processing

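No alternative moved a GRX480 difference by more than its pooled within-group SD of 0.78. Leaving out each array gave log2 differences of 3.67 to 4.43 (ranks 11 to 21) for hyperphyllin against wild-type DMSO, 1.58 to 2.53 (ranks 36 to 159) for amp1-13 against wild-type DMSO and 1.55 to 2.47 (ranks 32 to 103) for hyperphyllin against amp1-13. The other settings gave 4.00 to 4.11, 1.95 to 2.15 and 1.86 to 2.16, and array weights moved the amp1-13 rank to 88. Among these settings, the filters, priors and replicate block cannot change a difference of group means. Called probe sets, higher and lower, with array weights were 4988 and 5497 for hyperphyllin against wild-type DMSO, 4412 and 4951 for amp1-13 and 1735 and 1688 for hyperphyllin against amp1-13. With a 2-fold minimum they were 1005 and 558, 665 and 318, and 266 and 259. Leaving out each array gave 1921 to 4422 higher and 1960 to 4447 lower for hyperphyllin, 1295 to 3864 and 1250 to 4078 for amp1-13, and 197 to 1094 and 309 to 1133 for hyperphyllin against amp1-13; the cause was not tested. For class III glutaredoxins, leaving out each array gave 3 to 6 genes higher and 4 to 6 lower with hyperphyllin, 0 to 1 and 1 to 4 in amp1-13, and 1 to 4 in either direction for hyperphyllin against amp1-13. Leaving out probe sets below the median signal left 1 class III gene called higher with hyperphyllin, since fewer genes were tested. With array weights 10 glutathione S-transferase genes were lower with hyperphyllin and 6 in amp1-13, and 4 WRKY genes were higher in amp1-13. Among the list members' differences under these alternatives, 2965 stayed on the same side of the threshold, some near 0 with a change of sign, 131 lost the call and 90 gained it; 0 changed sign where either value was called.

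The replicate numbers were not taken as pairs: the correlation of same-numbered arrays' deviations was 0.005, -0.037 and -0.013 for hyperphyllin and wild-type DMSO, -0.019, 0.108 and 0.226 for amp1-13 and wild-type DMSO and -0.030, -0.197 and 0.161 for hyperphyllin and amp1-13, so not all were above 0.1, and not every array correlated best with its own number. The largest correlation, 0.357, was between hyperphyllin replicate 2 and amp1-13 replicate 1. These are the arrays on which GRX480 was highest in those groups. With the replicate number as a block, 2892 probe sets were higher and 3383 lower for hyperphyllin, 2183 and 2686 for amp1-13, and 643 and 695 for hyperphyllin against amp1-13. The GRX480 differences were again 4.05, 2.15 and 1.90. Each replicate number occurs in every group, so a block cannot change these differences. Values near the bottom of the signal range, such as those of AT4G15660 and PDF1.2, are limited by signal over background.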
